A study of Mus musculus with 9 samples.

Results

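Blood-brain barrier endothelial genes were examined as 9 genes chosen by name from the deposited tables, namely Cldn5, Ocln, Pecam1, Cdh5, Flt1, Tek, Abcb1a, Slco1a4 and Mfsd2a. They are 9 of the 53465 genes listed, and all 9 were among the 18501 genes with enough reads to be tested. The blood-brain barrier is the wall that brain capillary endothelial cells form between blood and neural tissue. Tight junction proteins seal the gaps between these cells, efflux pumps return lipophilic molecules to the blood, and selective carriers and a low rate of vesicle traffic decide what crosses the cells themselves. Pericytes, astrocyte endfeet and a shared basement membrane surround the endothelium, which takes up a small part of brain tissue.

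The genes were measured in polyA RNA of brains from male C57BL/6 mice that entered the study at 7 weeks of age, with 3 mice in each of 3 groups. CON mice were non-diabetic and received saline. DNP mice, the model of diabetic neuropathic pain, were kept for 4 weeks on high-fat chow (60%), were injected intraperitoneally with streptozotocin (50 mg/kg on each of 7 days, after a 6-h fast), which destroys pancreatic beta cells, and received saline. A fasting glucose of at least 16.7 mmol/L defined diabetes, and hypersensitivity was measured 4 weeks after streptozotocin. BAC mice were made diabetic in the same way and received baclofen, an agonist of GABAB receptors, at 8 mg/kg intraperitoneally each day for 7 days. No non-diabetic mice given baclofen were analysed, and diet, streptozotocin and hyperglycemia cannot be told apart, since all diabetic mice had them together. The design asks how the genes differed between DNP and CON, between BAC and DNP, and between BAC and CON. DNP libraries serve in the first and second of these comparisons, CON libraries in the first and the last, and BAC libraries in the second and the last, so that the comparisons are not independent.

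Library totals ranged from 13107382 to 16008129 counts. The 9 barrier genes together took 0.0220% to 0.0326% of the counts of a library. Single genes had from 74 counts (Ocln in BAC replicate 2) to 1270 counts (Flt1 in DNP replicate 2). Libraries labelled whole brain differed in the regions their markers represent. Each of 7 Hox genes of hindbrain and spinal cord had more than 30 counts in DNP replicate 1, BAC replicate 1 and BAC replicate 3, and none had more than 3 counts in the other 6 libraries. Gabra6, the marker of cerebellar granule cells, had 0 counts in DNP replicate 2, DNP replicate 3 and BAC replicate 2, 42 in CON replicate 1 and 432 to 4828 elsewhere. Several results are therefore also given without the 3 libraries with hindbrain markers, or with region scores in the fit. That omission keeps every CON library and leaves only diabetic libraries with 0 Gabra6 counts. The median log2 fold change of cerebellar markers then went from -2.68 to -3.73 in DNP versus CON. In BAC versus CON it went from -0.76 to -4.41. The omission therefore does not even out cerebellar content between diabetic and CON libraries. In bulk tissue, fewer endothelial cells and less RNA per endothelial cell cannot be told apart.

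Promoter sequences are shown for 3 genes on which the results turn. Flt1 and Tek are receptor genes whose levels varied together across libraries, and Mfsd2a varied against them. Each sequence is the 250 bases before the transcription start in RefSeq (GRCm38.p6), written 5′ to 3′ on the strand of the gene, at chr5:147726012-147726261 (minus strand) for Flt1, chr4:94739039-94739288 (plus strand) for Tek and chr4:122961189-122961438 (minus strand) for Mfsd2a. Capitals mark GGAAG, which is GGAA, the core of the motif bound by ETS factors, with 1 more base. ETS factors are a family that drives many endothelial genes.
Flt1: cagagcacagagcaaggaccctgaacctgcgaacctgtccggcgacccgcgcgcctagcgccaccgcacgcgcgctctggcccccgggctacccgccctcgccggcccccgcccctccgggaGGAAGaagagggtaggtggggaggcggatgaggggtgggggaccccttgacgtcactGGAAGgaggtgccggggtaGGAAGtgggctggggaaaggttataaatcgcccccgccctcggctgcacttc
Tek: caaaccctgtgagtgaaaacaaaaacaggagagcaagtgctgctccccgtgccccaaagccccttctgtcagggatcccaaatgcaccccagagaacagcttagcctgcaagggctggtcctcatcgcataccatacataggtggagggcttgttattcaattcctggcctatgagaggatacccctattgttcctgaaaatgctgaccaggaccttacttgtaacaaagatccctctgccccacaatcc
Mfsd2a: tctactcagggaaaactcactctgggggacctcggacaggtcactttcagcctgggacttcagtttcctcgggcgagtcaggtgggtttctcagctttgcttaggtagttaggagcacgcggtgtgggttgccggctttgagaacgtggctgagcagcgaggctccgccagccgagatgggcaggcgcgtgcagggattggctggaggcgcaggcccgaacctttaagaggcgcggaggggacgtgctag
The Flt1 window held 3 copies of GGAAG, and the Tek and Mfsd2a windows held 0. Of the 7 barrier genes with a RefSeq promoter in the table, Pecam1 and Cdh5 being without one, 3 held GGAAG on either strand (Flt1, Abcb1a and Slco1a4). Among 32851 RefSeq promoter windows of the same length, 64.1% held it. The shorter core GGAA, which every GGAAG contains, was present on either strand in 6 of the 7 windows, with 4 copies for Flt1, 2 for Tek and 2 for Mfsd2a, and 93.4% of all windows held it. TATAAA was found in the Flt1 window only, and 12.4% of all windows held it. The RefSeq start used for Abcb1a lies 92986 bases from the GENCODE start. These matches of letters describe the windows and are not evidence of binding.

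Levels per length of transcript differed widely among the genes. In FPKM, a level corrected for length, Cldn5 was the highest with 23.3 ± 6.28 (SD, n = 9 libraries). Slco1a4 followed with 8.07 ± 1.44 and Mfsd2a with 7.23 ± 3.08. Abcb1a had 5.25 ± 0.962 FPKM, Flt1 4.77 ± 1.17 and Cdh5 3.22 ± 0.784, and Pecam1 (1.86 ± 0.433), Tek (1.70 ± 0.335) and Ocln (1.43 ± 0.547) were lowest. Only Cldn5, at 13.2 to 33.1 FPKM, was separated from its next neighbour in this order in every library. Each of the other neighbouring pairs overlapped across libraries. Relative variation in CPM was greatest for Mfsd2a (a coefficient of variation of 42.1% over the 9 libraries) and Ocln (37.1%), and least for Slco1a4 (17.1%) and Abcb1a (18.4%).

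**Figure D1:**
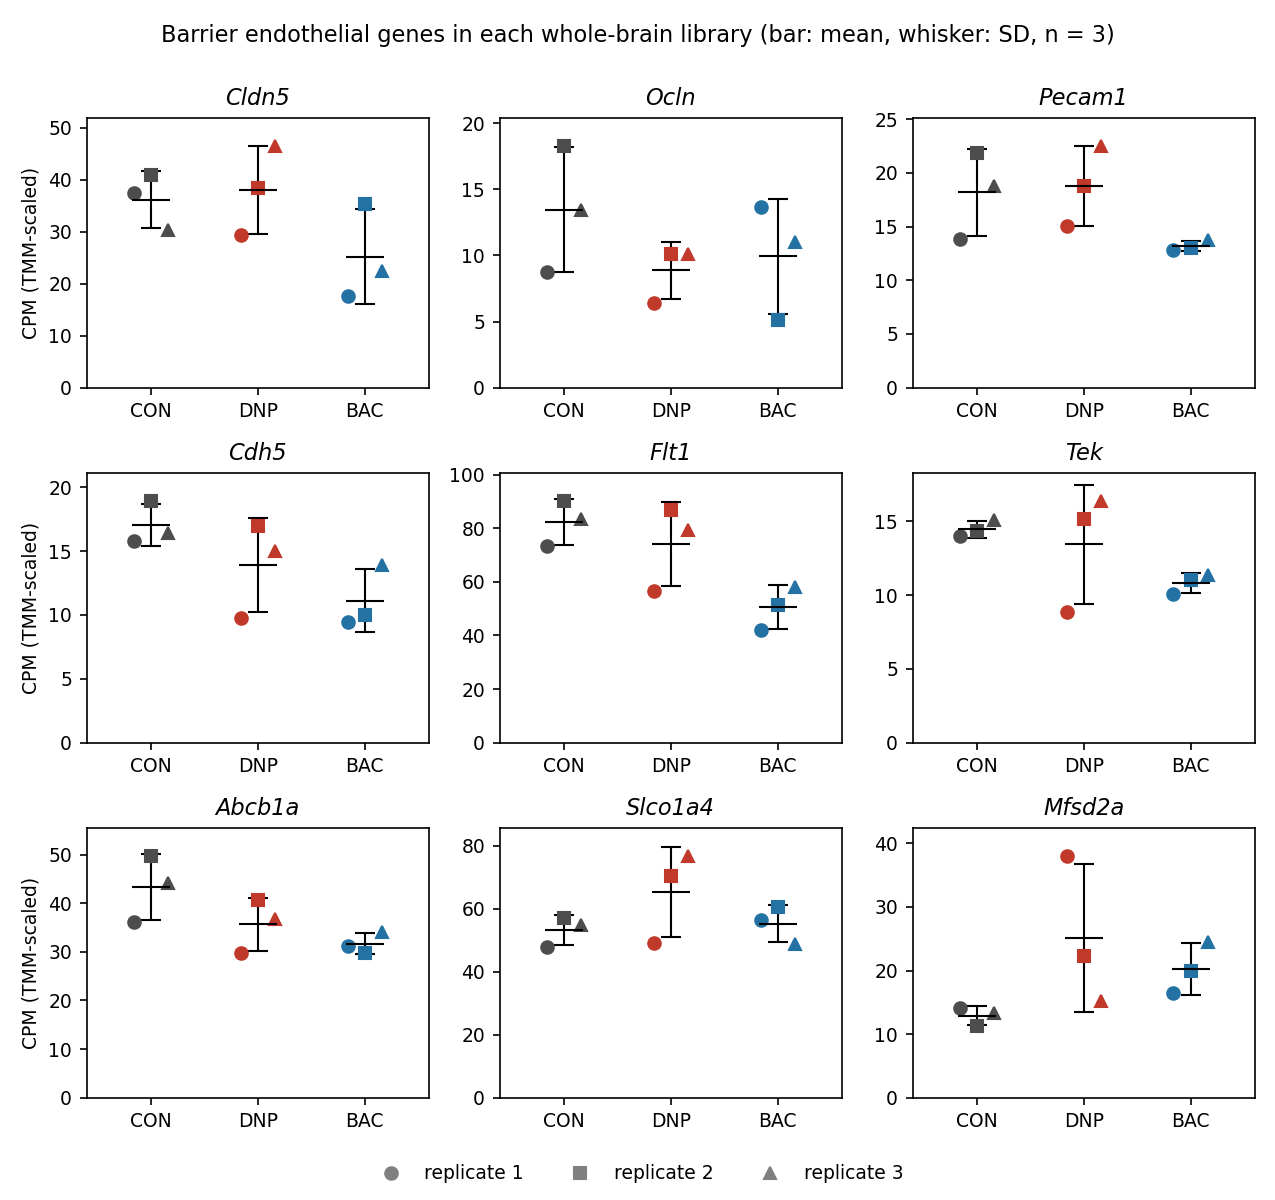
CPM (counts scaled to library size with TMM factors; linear axes from 0) of the 9 barrier genes in the 3 CON, 3 DNP and 3 BAC libraries, with a symbol for each replicate, the group mean as a bar and the SD as whiskers (n = 3). DNP replicate 1 (red circle) was the lowest DNP library for 8 of the 9 genes and the highest library of all for Mfsd2a at 38.0 CPM.

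Tight junction genes are described first, in CPM, the counts scaled to library size with TMM factors, which compare libraries within a gene. Cldn5 encodes claudin-5, the main sealing claudin of brain endothelium, and is a gene of 1 exon on chromosome 16 (GRCm38, 18776847 to 18778262, plus strand). It had 37.4, 41.0 and 30.3 CPM in CON replicates 1 to 3, and 29.3, 38.4 and 46.4 CPM in DNP. In BAC it had 17.7, 35.4 and 22.5 CPM. BAC replicates 1 and 3 were the lowest of all libraries, while BAC replicate 2 lay within the range of CON and DNP, so that no pair of groups was separated. The log2 fold change of BAC versus DNP was -0.59 (standard error 0.28, 95% interval -1.23 to 0.04). Both low libraries carried the hindbrain markers, and without the 3 libraries with these markers, which leaves BAC replicate 2 alone in its group, the value was -0.26.

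Ocln (chromosome 13, 100496507 to 100552718, minus strand) encodes occludin, a tight junction protein of endothelium and of epithelia such as the choroid plexus. Its CPM were 8.76, 18.2 and 13.4 in CON, 6.37, 10.1 and 10.1 in DNP, and 13.7, 5.11 and 11.02 in BAC. All groups overlapped, and values within CON and within BAC were spread widely. The log2 fold change of DNP over CON was -0.60 (standard error 0.40), that of BAC over DNP 0.16 (0.40) and that of BAC over CON -0.44 (0.40). With BAC replicate 1 left out, the value of BAC versus DNP had the other sign (-0.13).

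Adhesion between endothelial cells is represented by Pecam1 and Cdh5. Pecam1 (chromosome 11, 106654217 to 106750628, minus strand) encodes CD31, a junctional adhesion molecule of all endothelium that leukocytes and platelets also carry. It had 13.9, 21.9 and 18.8 CPM in CON and 15.1, 18.8 and 22.5 CPM in DNP. In BAC the values were 12.8, 13.05 and 13.7 CPM, a tight set below every library of the other groups. The log2 fold change was 0.046 (standard error 0.21) in DNP versus CON, and -0.51 (0.21, 95% interval -0.997 to -0.021) in BAC versus DNP. BAC compared with CON gave -0.46 (0.21). In BAC versus DNP the edgeR quasi-likelihood test gave an unadjusted p of 0.0429 and an adjusted p of 0.998.

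Cdh5 (chromosome 8, 104101625 to 104144511, plus strand) encodes VE-cadherin, the cadherin of endothelial adherens junctions. Its CPM were 15.8, 18.9 and 16.4 in CON, 9.78, 16.9 and 15.0 in DNP and 9.44, 10.0 and 13.9 in BAC. Every BAC library was below every CON library, and DNP replicate 1 was as low as the BAC libraries. BAC versus CON gave a log2 fold change of -0.61 (standard error 0.25, 95% interval -1.17 to -0.05), with an adjusted p of 0.628 in edgeR. DNP versus CON had -0.29 (0.24) and BAC versus DNP -0.32 (0.25).

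Receptors of vascular growth factors are represented by Flt1 and Tek. Flt1 (chromosome 5, 147561604 to 147726011, minus strand) encodes VEGF receptor 1, which binds VEGF-A with high affinity and also exists as a soluble decoy. It had 73.2, 90.0 and 83.6 CPM in CON, 56.6, 86.7 and 79.4 CPM in DNP and 41.9, 51.5 and 58.1 CPM in BAC. BAC was below CON in every library, and below DNP in every library except that BAC replicate 3 exceeded DNP replicate 1. The mean was 82.2 ± 8.48 CPM over CON mice, 74.2 ± 15.7 over DNP mice and 50.5 ± 8.12 over BAC mice (SD, n = 3 each). BAC differed from CON by a log2 fold change of -0.70 (standard error 0.20, 95% interval -1.15 to -0.25), or a ratio of 0.614, with an unadjusted p of 0.00648 and an adjusted p of 0.628 (edgeR). Over the 20 alternatives this value ran from -0.82 to -0.39. For BAC versus DNP the log2 fold change was -0.56 (0.20), with an adjusted p of 0.998 (edgeR), and for DNP versus CON -0.15 (0.20).

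Tek (chromosome 4, 94739289 to 94874976, plus strand) encodes Tie2, the receptor of the angiopoietins that stabilize vessels. CON libraries had 14.0, 14.3 and 15.1 CPM. DNP libraries had 8.84, 15.2 and 16.4 CPM and BAC libraries 10.1, 11.05 and 11.3 CPM. BAC lay below CON throughout. DNP replicate 1 was the lowest library of all, while the other DNP libraries were above all of CON. For DNP over CON the log2 fold change was -0.11, that of BAC over DNP -0.31 and that of BAC over CON -0.42, each with a standard error of 0.23.

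Transport across the endothelium is represented by an efflux pump, an organic anion carrier and a lipid carrier. Abcb1a (chromosome 5, 8660077 to 8748575, plus strand) encodes P-glycoprotein, the luminal pump that expels many drugs. Its CPM were 36.1, 49.6 and 44.2 in CON, 29.8, 40.6 and 36.6 in DNP and 31.2, 29.8 and 34.1 in BAC. All BAC libraries were below all CON libraries, whereas DNP overlapped both groups. Against CON, BAC stood at a log2 fold change of -0.45 (standard error 0.17, 95% interval -0.84 to -0.06; adjusted p 0.628, edgeR). DNP versus CON had -0.28 (0.17) and BAC versus DNP -0.17 (0.17). Abcb1b, a close paralog, had 50 to 98 counts per library, and Gm42686, which shares exon bases on the opposite strand, had 0 to 14, so that reads of these unstranded libraries may be split between them and Abcb1a.

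Slco1a4 (chromosome 6, 141805440 to 141856199, minus strand) encodes Oatp1a4, an organic anion transporter of brain capillaries. It had 47.9, 57.0 and 54.8 CPM in CON, 49.2, 70.3 and 76.6 CPM in DNP and 56.4, 60.6 and 48.9 CPM in BAC. DNP replicates 2 and 3 were above all other libraries, DNP replicate 1 was near the bottom, and all groups overlapped. The log2 fold change of DNP over CON was 0.30, that of BAC over DNP -0.24 and that of BAC over CON 0.056, each with a standard error of 0.18. Paralogs contributed few reads, with at most 6 counts for Slco1a5, 2 for Slco1a6 and 0 for Slco1a1.

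Mfsd2a (chromosome 4, 122946850 to 122961188, minus strand) encodes a carrier of lysophosphatidylcholine that brings docosahexaenoic acid into the brain and keeps vesicle transcytosis low. Its CON libraries had 14.1, 11.3 and 13.3 CPM, DNP libraries 38.0, 22.3 and 15.2 CPM and BAC libraries 16.4, 19.9 and 24.4 CPM. Every diabetic library, with or without baclofen, was above every CON library. In DNP versus CON the log2 fold change was 0.96 (standard error 0.32, 95% interval 0.23 to 1.69), a ratio of 1.95, with an unadjusted p of 0.0158 and an adjusted p of 0.365 (edgeR). BAC versus CON had 0.65 (0.32, adjusted p 0.652) and BAC versus DNP -0.31 (0.32). The DNP versus CON value was 0.54 without DNP replicate 1 and 0.52 without the 3 libraries with hindbrain markers. With scores of the cerebellar and hindbrain markers as covariates it was 0.36, and that of BAC versus CON was -0.052.

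Across the 9 genes no difference passed an adjusted p of 0.05 in any comparison, by edgeR or by DESeq2. The background was the same under edgeR, which called 0% of 18501 genes in each comparison, whereas DESeq2 called 1.85% of genes for DNP against CON, 0.0379% for BAC against DNP and 0.552% for BAC against CON, with 0 of the 9 among them. At an unadjusted p under 0.05 (edgeR) 2067, 438 and 1436 of all genes were found in the 3 comparisons, in the same order.

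In DNP versus CON the barrier genes did not share a direction. Of the 9, 5 were lower and 4 higher in DNP, with a median log2 fold change of -0.11 against 0.01 over all genes tested, of which 48.6% were lower and 51.4% higher. Mfsd2a alone reached an unadjusted p under 0.05, against 11.2% of all genes (5.71% higher, 5.46% lower). It alone had groups that did not overlap, against 18.2% of all genes (9.59% higher, 8.63% lower), and without CON replicate 2 it no longer reached the unadjusted p. Without DNP replicate 1 the median was 0.12, 3 of the 9 were lower, and 3 were higher without overlap (16.5% of all genes). Ocln and Abcb1a were lower without overlap when CON replicate 1 was left out (14.2% of all genes were lower without overlap), and Cdh5 was when DNP replicate 2 was (12.7%). Leaving out the 3 libraries with hindbrain markers, 3 of the 9 were lower (median 0.11), and with region scores 1 was (median 0.22).

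The fitted level was lower in BAC than in DNP for 8 of the 9 genes, Ocln being the exception, where 51.9% of all genes were lower and 48.1% higher. The median log2 fold change was -0.31, against -0.01 over all genes. Flt1 and Pecam1 reached an unadjusted p under 0.05 on the lower side, against 1% of all genes (2.37% on either side, 1.37% on the higher side). Pecam1 alone was without overlap between the groups, against 3.41% of all genes (6.79% in either direction, 3.38% higher). The count without overlap rested on DNP replicate 1. Without it 7 genes, namely Cldn5, Pecam1, Cdh5, Flt1, Tek, Abcb1a and Slco1a4, were lower in every BAC library than in both remaining DNP libraries, where 13.1% of all genes were, and 6 reached an unadjusted p under 0.05 on the lower side (2.53% of all genes). The median was then -0.52. The count at this unadjusted p, in either direction, was 0 without DNP replicate 2 (1.84% of all genes). It was also 0 without DNP replicate 3 (1.14%) or without BAC replicate 1 (1.18%). Without the 3 libraries with hindbrain markers the only BAC library left was below both DNP libraries for 8 genes, Mfsd2a being the exception, where 34.3% of all genes were, with a median of -0.51.

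In BAC versus CON, 7 of the 9 genes were lower, Slco1a4 and Mfsd2a being higher, where 51.8% of all genes were lower and 48.2% higher. The median log2 fold change was -0.45, against -0.02 over all genes. Cdh5, Flt1 and Abcb1a reached an unadjusted p under 0.05 on the lower side, against 3.3% of all genes (7.76% on either side, 4.46% on the higher side). Pecam1, Cdh5, Flt1, Tek and Abcb1a were lower without overlap (6.23% of all genes), and Mfsd2a was higher without overlap (7.21%), against 13.4% of all genes in either direction. The count at the unadjusted p, in either direction, was 6 without DNP replicate 1 (8.95% of all genes). It was 1 without CON replicate 2 (9.24%), CON replicate 3 (4.68%) or BAC replicate 1 (6.64%). Between 5 and 6 genes were lower without overlap whichever single library was left out. The matching share of all genes was not steady. It was 6.23% when any DNP library was omitted, 15.6% when CON replicate 2 was, and 17% when BAC replicate 2 was. The count of 5 to 6 therefore does not stand out equally in each of these fits. Without the 3 libraries with hindbrain markers 7 of the 9 were lower, with a median of -0.49. With the cerebellar and hindbrain scores as covariates 6 were, with a median of -0.09. In that fit 0 of the 9 reached an unadjusted p under 0.05 (edgeR) on the lower side, where 6.13% of all genes did. Summed over the 9 genes, CPM were 261 to 322 in CON, 243 to 319 in DNP and 210 to 238 in BAC, so that the BAC libraries had the lowest sums.

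**Figure D2:**
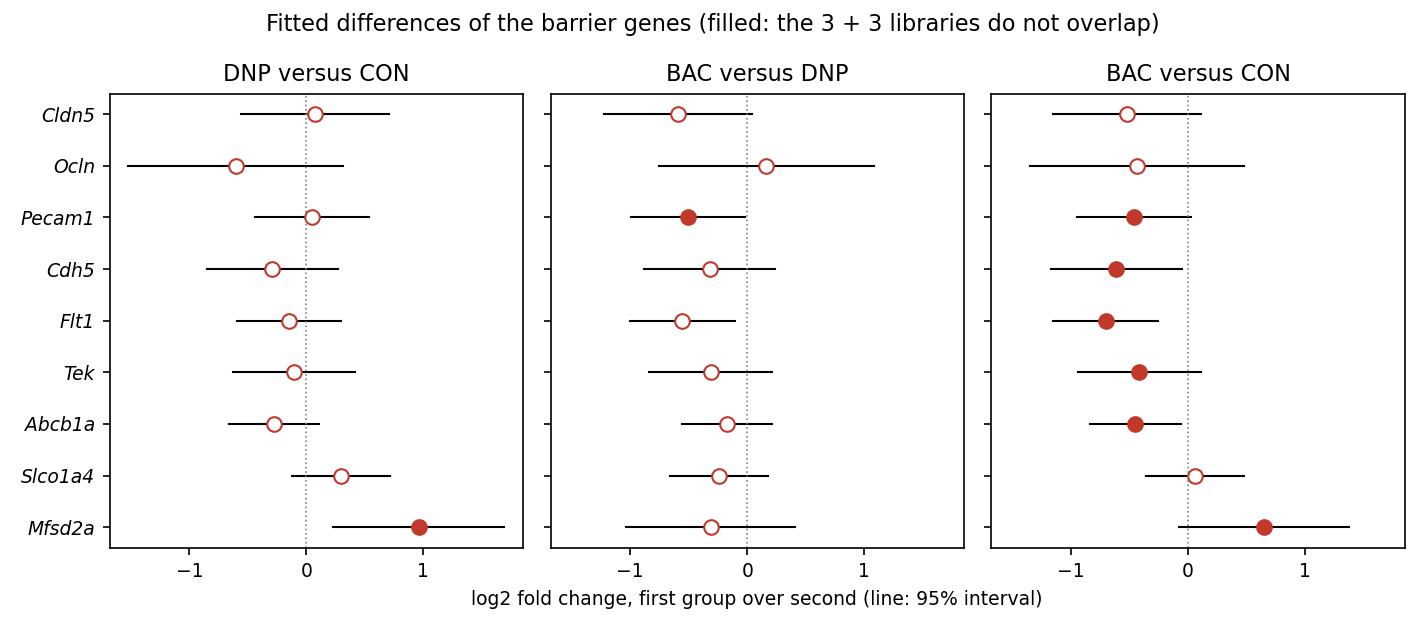
Fitted log2 fold changes (x axis; first group over second) of the 9 barrier genes in the 3 comparisons, with 95% intervals from edgeR as lines and filled points where the libraries of the groups did not overlap. Of the 9 points, 7 lie left of 0 in BAC versus CON, and the interval of Flt1 runs from -1.15 to -0.25.

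Most of the genes varied together from library to library. Over the 9 libraries, 27 of 36 pairs of genes had a positive Pearson correlation of log2 CPM, and 19 had one above 0.5 (median 0.53). The closest pair was Cdh5 and Flt1 (Pearson 0.93, Spearman 0.97, and 0.92 without the 2 libraries farthest from the median of Cdh5). Among Pecam1, Cdh5, Flt1, Tek and Abcb1a, chosen after their values were seen, the 10 pairs had correlations of 0.72 to 0.93. Ocln and Slco1a4 followed the others loosely. Their correlations were 0.50 and 0.55 with the mean of the 9 standardized genes, which includes the gene itself. Their median correlations with the other 8 genes were 0.41 and 0.27. Mfsd2a was negatively correlated with each of the other 8 genes, from -0.68 (Tek) to -0.21. These values describe 9 libraries that share groups, depth and regional content, and carry no test.

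The search for genes outside the set covered tested genes with a mean of at least 1 CPM. Sought were those whose pattern over the 9 libraries was closest to the mean of the barrier genes. They were Tie1 (Pearson 0.99), an endothelial receptor that partners Tie2, Adgrf5 (0.95), an adhesion receptor of endothelium, Abcc4 (0.95), an efflux transporter, Myo9b (0.95), an unconventional myosin, and Rgs5 (0.94), a pericyte marker. For Tie1 itself the log2 fold change was -0.65 in BAC against DNP and -0.75 in BAC against CON, each with a standard error of 0.32. With region scores as covariates they were -0.41 and 0.029. Tie1 was chosen for its likeness to the 9 genes, so these values are a description of the same pattern.

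**Figure D3:**
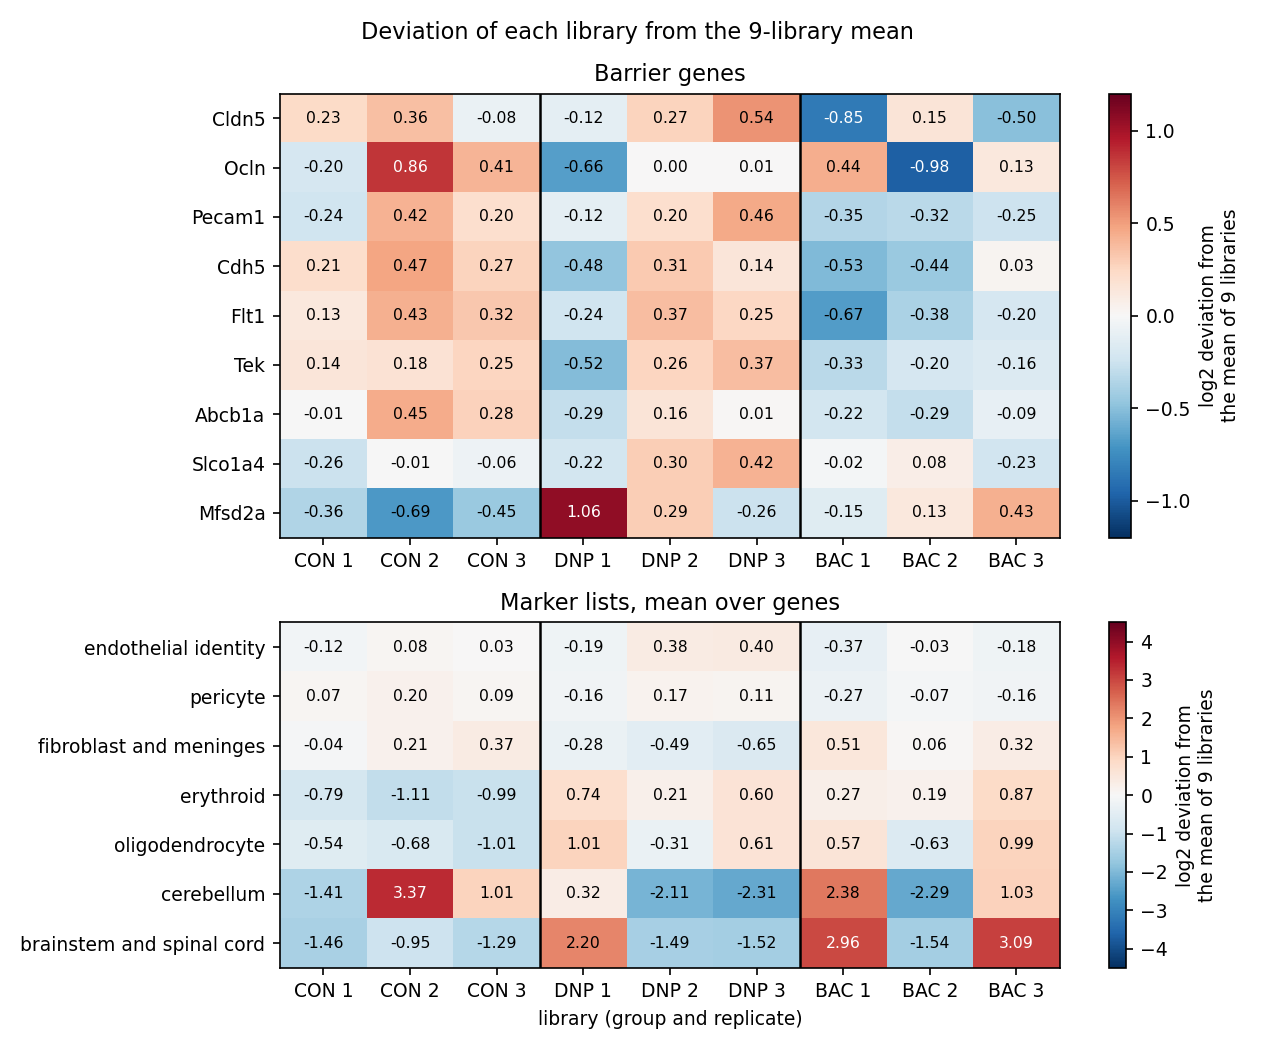
Deviation of each library from the mean of the 9 libraries on the log2 scale (columns: libraries by group; colour and printed value: log2 CPM deviation), for the 9 barrier genes above and for means over marker lists below (log2 of CPM + 1). BAC replicate 1, DNP replicate 1 and BAC replicate 3 carry the hindbrain markers, and Mfsd2a is at its highest in DNP replicate 1.

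Markers of other cell types differed between the groups as well. The 5 erythroid genes, which mark red blood cells, were higher without overlap in DNP than in CON and in BAC than in CON, with summed CPM of 188 to 218 in CON, 477 to 683 in DNP and 471 to 735 in BAC. Of all genes, 9.59% and 7.21% were higher without overlap in these comparisons. Oligodendrocyte markers were higher in DNP than in CON for 6 of 6 genes, with summed CPM of 2111 to 2955 in CON, 3539 to 8906 in DNP and 2850 to 9087 in BAC. In BAC against CON the same 6 of 6 were higher, but 3 were lower without the 3 libraries with hindbrain markers. Of 8 pericyte markers, 7 were lower in BAC than in DNP and 8 were lower than in CON, with sums of 262 to 300 in CON, 202 to 299 in DNP and 195 to 237 in BAC. Both pericyte counts were 6 without the 3 libraries, and with region scores they were 5 and 4. Vascular smooth muscle markers were lower in BAC than in DNP for 4 of 4 genes, 3 without the 3 libraries and 2 with region scores, and summed to 17.7 to 42.9 CPM over the 9 libraries.

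Of the fibroblast and meningeal markers 7 of 7 were below CON in DNP, and 7 of 7 were higher in BAC than in DNP (sums of 102 to 137 in CON, 70.7 to 99.4 in DNP and 117 to 129 in BAC). Astrocyte markers were higher in BAC than in DNP for 7 of 7 genes, with sums of 2789 to 4057 CPM in CON, 2486 to 3009 in DNP and 3299 to 3850 in BAC. Neuron markers were lower in BAC than in DNP for 6 of 7 genes, with sums of 4614 to 6626 CPM in CON, 4970 to 6202 in DNP and 4109 to 5363 in BAC. In this comparison 2 of the 7 astrocyte genes and 4 of the 7 neuron genes were lower without the 3 libraries with hindbrain markers. Microglia markers were higher in DNP than in CON for 5 of 6 genes, with a median log2 fold change of 0.32. Their sums were 100.3 to 187 CPM in CON, 175 to 213 in DNP and 144 to 265 in BAC. This rise did not hold with region scores in the fit, where 4 of the 6 values fell below 0 (median -0.053). Leaving out the 3 libraries with hindbrain markers, 1 of the 6 was below 0 (median 0.46). Choroid plexus markers summed to 26.1 to 1389 CPM over the 9 libraries.

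Cerebellar markers were lower in DNP than in CON for 10 of 10 genes, with sums of 1194 to 9875 CPM in CON, 633 to 1186 in DNP and 948 to 4967 in BAC. The 9 brainstem and spinal cord genes summed to 0.862 to 28.8 CPM in CON, and to 364 in DNP replicate 1, 404 in BAC replicate 1 and 372 in BAC replicate 3, against at most 0.478 in the other diabetic libraries. Mitochondrial genes took 4.34% to 5.36% of counts in CON libraries and 5.94% to 7.23% in the diabetic libraries. The part of these markers and of this share in the differences of the barrier genes was not tested, beyond the fits with region scores and without libraries given above.

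Genes of 8 wider vascular lists were tested beside the barrier genes, and 0 of them passed an adjusted p of 0.05 in edgeR in any comparison. Further markers of endothelial identity numbered 20. In DNP versus CON 14 of 20 were higher and 6 lower, with a median log2 fold change of 0.20. Without the libraries with hindbrain markers 2 were lower, and with region scores 4 were. Of the 14 higher genes, 3 reached an unadjusted p under 0.05 (edgeR), where 5.71% of all genes did on the higher side. They were Ly6a at a log2 fold change of 1.27 (standard error 0.25), Ly6c1 at 0.88 (0.19) and Vwf at 0.78 (0.16). Ly6a and Ly6c1 encode surface proteins of capillary endothelium, and Vwf encodes von Willebrand factor. The adjusted p was 0.294 for each in edgeR, and DESeq2 gave 0.00183, 0.0126 and 0.00646. In BAC versus DNP 19 of 20 were lower (median -0.45), a count of 17 to 19 over all alternatives. On the lower side 5 reached an unadjusted p under 0.05 (edgeR), where 1% of all genes did. Among them was Robo4 (-0.85, standard error 0.25), a guidance receptor of vessels. In BAC versus CON 16 of 20 were lower (median -0.21), but 12 without the 3 libraries with hindbrain markers and 7 with region scores as covariates.

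Partners of the tight junction numbered 10. In DNP versus CON 8 were lower and in BAC versus DNP 3 were. None reached an unadjusted p under 0.05 (edgeR), where 11.2% and 2.37% of all genes did. With region scores the counts of lower genes were 3 and 7, with medians of 0.15 and -0.13. They were 8 and 7 without the 3 libraries with hindbrain markers, with medians of -0.29 and -0.018. Tjp1, which encodes the scaffold ZO-1, had 104 ± 19.3 CPM over CON mice, 89.8 ± 4.48 over DNP mice and 94.1 ± 2.84 over BAC mice (SD, n = 3 each). Cgn, encoding cingulin, Cldn12 and Marveld2 varied widely within groups, and their largest value, -2.05 for Marveld2 in DNP versus CON, had a standard error of 1.06, was -0.12 without CON replicate 2 and was 1.09 with region scores.

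Transporters of the barrier beyond the 9 genes split in direction. Of 16, 9 were lower and 7 higher in DNP than in CON. At an unadjusted p under 0.05 (edgeR) there were 2 on each side, against 5.46% of all genes lower and 5.71% higher. In BAC 11 were lower than in DNP, 2 of them at that p (1% of all genes). Slc2a1, encoding the glucose transporter GLUT1, had 107 ± 8.52 CPM over CON mice, 160 ± 9.49 over DNP mice and 114 ± 34.4 over BAC mice (SD, n = 3 each). Its groups did not overlap in DNP versus CON (log2 fold change 0.58, standard error 0.21; adjusted p 0.383, edgeR). Slc38a5, a glutamine carrier, had 1.27 in the same comparison (0.30; adjusted p 0.294 in edgeR and 0.0289 in DESeq2), and Lrp8, a reelin receptor, had -0.46 (0.18), which was -0.15 with region scores. Slco1c1, the thyroid hormone carrier of brain capillaries, was -0.68 (0.28) in BAC versus DNP, and -0.41 without the 3 libraries with hindbrain markers. With these libraries left out 7 of the 16 were lower for DNP against CON and 12 for BAC against DNP.

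Receptors and ligands of the VEGF and angiopoietin system were tested for 13 genes. Kdr, encoding VEGF receptor 2, had 17.4 ± 1.80 CPM over CON mice, 10.00 ± 5.01 over DNP mice and 7.64 ± 0.381 over BAC mice (SD, n = 3 each). It was lower without overlap in both diabetic groups than in CON, at -0.79 on the log2 scale (standard error 0.33) in DNP and -1.18 (0.33; adjusted p 0.628, edgeR) in BAC. With region scores these were -0.50 and -0.59. Ptprb, encoding the phosphatase that restrains Tie2, had -0.54 (0.22) in DNP versus CON and -0.69 (0.22) in BAC versus CON. Apln, encoding the peptide apelin, was 0.67 (0.27) higher in DNP than in CON on the log2 scale, and 0.045 with region scores. Of the 13, Esm1 not being tested, 9 were lower in BAC than in DNP and 9 were lower in BAC than in CON. Of these, 0 and 3 reached an unadjusted p under 0.05 (edgeR), where 1% and 3.3% of all genes did on the lower side. Both counts of lower genes were 8 without the 3 libraries with hindbrain markers.

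Among 15 genes of the Wnt and Norrin signals that induce barrier properties, 12 were lower in DNP than in CON. Of these, 1 reached an unadjusted p under 0.05 (edgeR), where 5.46% of all genes did on the lower side. Adgra2, encoding the Wnt7 coreceptor GPR124, had 25.4 ± 4.41 CPM over CON mice, 12.2 ± 2.40 over DNP mice and 16.2 ± 3.25 over BAC mice (SD, n = 3 each). DNP versus CON gave a log2 fold change of -1.05 (standard error 0.23; adjusted p 0.294 in edgeR and 0.00569 in DESeq2), and it kept its direction in 20 of 20 alternatives. Tspan12, a Norrin coreceptor, was 0.46 (0.17) and the Wnt coreceptor gene Lrp6 was -0.33 (0.15) in DNP versus CON, the latter at -0.013 with region scores. The Wnt effector Lef1 was -1.07 (0.47) in BAC versus DNP, with overlapping groups and DNP libraries at 3.77, 8.26 and 14.8 CPM. This difference was -0.61 with region scores, and reached -0.50 at its smallest with 1 library left out. In BAC versus DNP 8 of the 15 genes were lower, 7 without the 3 libraries with hindbrain markers and 4 with region scores. The count in DNP versus CON was 12 without these libraries and 9 with region scores.

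Genes of caveolae and fenestrae, which are sparse in barrier endothelium, were 6 in number. In DNP versus CON 4 were higher, and Cav1, encoding caveolin-1, had 1.09 (standard error 0.54) with overlapping groups, and 2.57 with region scores. Cavin2 (0.19, standard error 0.17) and Cavin3 (0.43, 0.22) had no CON library as high as any DNP library. Plvap, the diaphragm protein of fenestrated vessels, had 12.6 ± 5.59 CPM over CON mice, 12.7 ± 2.06 over DNP mice and 10.6 ± 1.22 over BAC mice (SD, n = 3 each), and the sign of its DNP versus CON difference of 0.01 turned in 10 of 20 alternatives.

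Leukocyte adhesion genes could be tested for 3 of 5, Sele and Selp being under the filter. Icam1 had 1.90 ± 0.421 CPM over CON mice and 4.47 ± 1.06 over DNP mice (SD, n = 3 each), without overlap, a log2 fold change of 1.23 (standard error 0.35; adjusted p 0.327, edgeR). Vcam1 and the venular chemokine receptor gene Ackr1 had 0.032 (0.21) and -0.58 (0.37) in DNP versus CON. Neither kept its sign in every alternative. With region scores Vcam1 was at -0.19 and Ackr1 at 0.60, and without CON replicate 2 Ackr1 was at 0.019. Ackr1 was highest in CON replicate 2 (106 CPM) and BAC replicate 1 (66.2 CPM). These libraries also had the highest sums of cerebellar markers (9875 and 4967 CPM), and a link was not tested. Of 9 genes of the vascular basement membrane, 8 were lower in BAC than in DNP, with a median of -0.42. Of the 9, 0 reached an unadjusted p under 0.05 (edgeR), where 2.37% of all genes did. The count of lower genes was also 8 without the 3 libraries with hindbrain markers and with region scores, with medians of -0.26 and -0.065. Hspg2, encoding perlecan, had 23.6 ± 3.85 CPM over CON mice, 16.7 ± 3.71 over DNP mice and 13.6 ± 2.94 over BAC mice (SD, n = 3 each), lower without overlap in both diabetic groups. Its log2 fold change was -0.50 in DNP versus CON and -0.79 in BAC versus CON. With region scores these were -0.22 and -0.43. The laminin genes Lamc1, Lama4 and Lama5 had log2 fold changes of -0.27 (0.12), -0.58 (0.24) and -0.37 (0.31) in BAC versus CON, and Lama5 was at 0.16 with region scores.

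**Figure D4:**
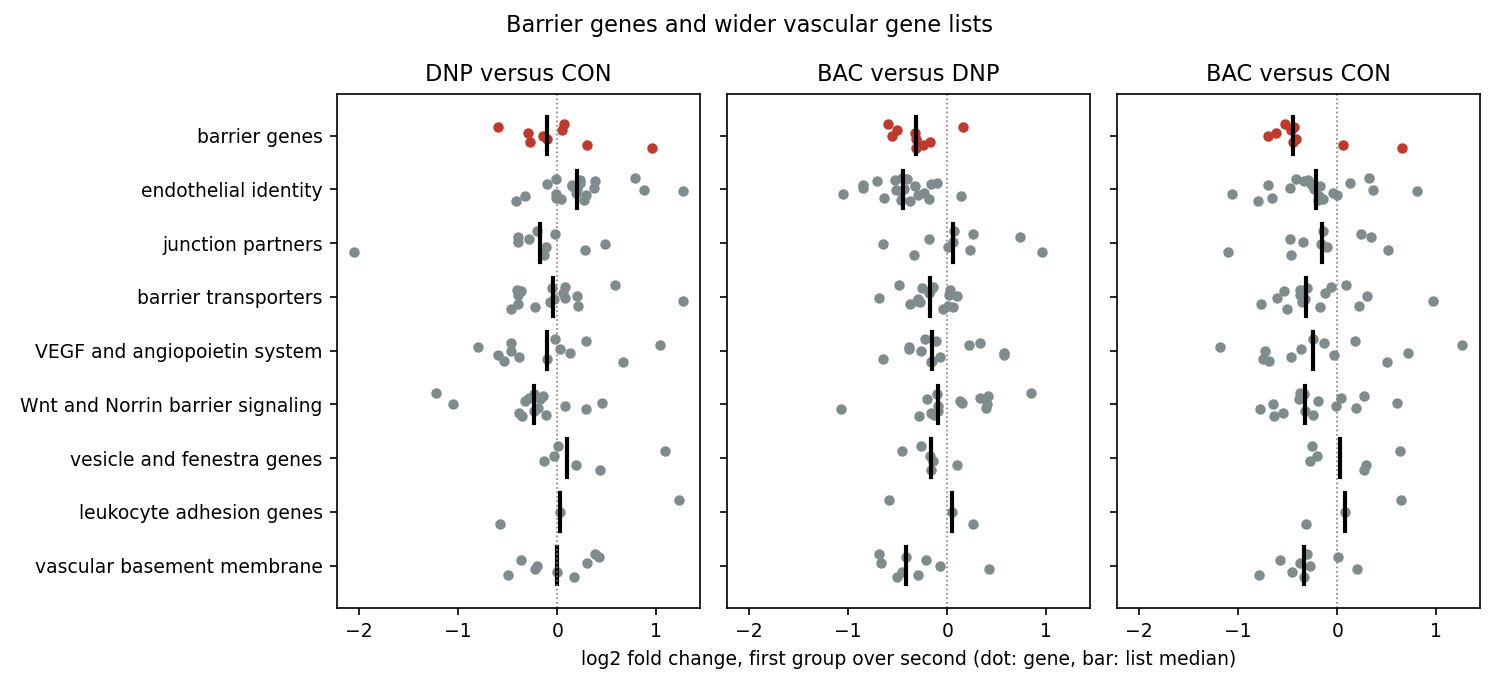
Log2 fold changes (x axis; first group over second) of the 9 barrier genes (red) and of the tested genes of 8 wider vascular lists (grey), each dot a gene and each bar the list's median. In BAC versus DNP the medians of the barrier genes (-0.31), endothelial identity (-0.45) and basement membrane (-0.42) lie left of 0 and that of the junction partners (0.06) right of it. The last was -0.018 without the 3 libraries with hindbrain markers.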

How the data were processed

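RNA-seq of brains labelled whole brain was analysed from 9 mice (3 CON, 3 DNP, 3 BAC), grouped by the sample labels. According to the submitters' processing notes and the study's methods, the authors checked reads with FastQC 0.11.9, filtered them with fastp, aligned them to GRCm38 with HISAT2 2.1.0 (Bowtie2 2.3.4.1 is also named) and quantified genes with StringTie 1.3.3b. The libraries were not stranded. The authors deposited raw counts per gene and FPKM values, each equal to the count over a gene length and over the total of the library. The treatment of multi-mapping reads is not given in the sources used here.

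Counts were analysed in R 4.3.3 with edgeR 4.0.16. Genes were kept by filterByExpr (minimum count 10), TMM factors were applied, and all 9 libraries entered 1 model with group as its only term. The quasi-likelihood test was adjusted by Benjamini-Hochberg over all 18501 genes tested, with a threshold of 0.05. DESeq2 1.42.0, which the study used, and limma 3.58.1 on log2(FPKM + 1) and log2(FPKM + 0.1) were alternatives, as were other size factors and filters, fits of the 2 groups compared, a replicate block, region scores as covariates (the mean deviation of log2(CPM + 1) over the cerebellar and over the brainstem and spinal cord markers) and leaving out each library. Omission of the 3 libraries with hindbrain markers, and the counts of lower genes and of unadjusted p, were added after seeing the data. All p-values are two-sided and rest on the spread between the libraries of single mice, which includes their differences in regional content. The main edgeR fit, DESeq2 and limma on log2(CPM + 1) were tested on simulated counts, for DNP versus CON only. The simulation had a dispersion common to all genes and no regional differences. The other alternatives were not simulated.

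The 9 genes and the gene lists were chosen with earlier results of these data known. All 9 genes are described. From each wider list the 3 genes with the smallest unadjusted p in DNP versus CON and the 1 with the smallest in BAC versus DNP are named, with the 5 genes closest in pattern to the mean of the 9. Those 5 were sought among tested genes with a mean of at least 1 CPM. Gene positions are from GENCODE M21 (GRCm38) and promoters from RefSeq (GRCm38.p6). Sequencing depth was 13107382 to 16008129 counts per library, and the count of mice, 3 per group, limits precision.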

Additional observations from a re-analysis of the deposited data

How the results depend on the processing

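None of the 9 genes passed an adjusted p of 0.05 in any comparison under the 20 alternatives (540 values). In 517 of these the direction was that of the value reported, and in 23 it was not. The cause of each reversal was not tested.

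With region scores as covariates, DNP versus CON was 0.22 for Ocln, 0.052 for Flt1, 0.027 for Tek and 0.058 for Abcb1a (median of the 9 genes 0.22). BAC versus DNP was -0.18 for Ocln. BAC versus CON was 0.040 for Ocln, 0.080 for Pecam1 and -0.052 for Mfsd2a (median -0.087). Without the 3 libraries with hindbrain markers, which leaves 1 BAC library assumed to vary like the rest, Flt1 (0.00070) and Tek (0.11) turned in DNP versus CON, and Ocln (-0.98) and Mfsd2a (0.088) in BAC versus DNP, with medians of 0.11 and -0.51.

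Leaving out 1 library at a time turned some differences. In DNP versus CON the values ran from -0.10 to 0.23 for Cldn5 (below 0 without CON replicate 3 or DNP replicate 3), from -0.12 to 0.19 for Pecam1 (CON replicate 1 or DNP replicate 3), and from -0.28 to 0.014 for Flt1 and -0.27 to 0.12 for Tek (above 0 without DNP replicate 1). BAC versus DNP ran from -0.13 to 0.47 for Ocln (below 0 without DNP replicate 1 or BAC replicate 1) and from -0.57 to 0.11 for Mfsd2a (above 0 without DNP replicate 1). BAC versus CON ran from -0.016 to 0.13 for Slco1a4 (below 0 without CON replicate 1 or BAC replicate 2).

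Leaving out 1 library, the median of the 9 genes was -0.21 to 0.12 in DNP versus CON. It was -0.52 to -0.21 for BAC against DNP and -0.57 to -0.34 for BAC against CON. The last was -0.24 by limma on log2(FPKM + 1). DESeq2 called 342, 7 and 100 genes in the 3 comparisons where edgeR called 0. With region scores edgeR called 1 gene for BAC against DNP and 2 for BAC against CON. Leave-one-out fits called 0 to 1 gene in DNP versus CON and in BAC versus CON, the 1 without CON replicate 2 or 3.

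Replicate numbers are shared by the groups in the labels, but deviations of same-numbered libraries correlated from -0.58 to 0.56, so the numbers were not taken as pairs. With a replicate block the medians were -0.14, -0.28 and -0.44, and 0 of the 9 genes passed the threshold.

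Whole tissue with 3 mice per group limits these data. The regional content differs between libraries, and the baclofen group holds 2 of the 3 libraries with hindbrain markers, so that region and treatment can be separated only in part.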
